A study of Bos taurus with 12 samples.

Results

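The cytosines described here lie in the outer promoters of bovine genes, at more than 1 kb and up to 3 kb from the nearest annotated transcription start. They were the rows of the deposited site table that the authors' annotation places in the promoter classes of 1 to 2 kb and 2 to 3 kb, on numbered autosomes, and numbered 8422 of 216990 sites (3.88%). Of these, 4136 lay at 1 to 2 kb and 4286 at 2 to 3 kb, and a further 98 outer promoter sites off the numbered autosomes were left out. The annotation counts both sides of a start as promoter, so 4254 sites (50.5%) were downstream of it and 4168 upstream. The DNA came from 1 mL of whole blood from each of 12 cows, 6 subfertile and 6 fertile, aged 3 to 8 years and kept in the same conditions on 1 farm. The 6 subfertile cows were culled within a year of sampling for reproductive complications that were unrecognised when blood was drawn. The 6 fertile cows were still in the herd with no fertility problem. The cows are separate animals, and no treatment or genetic modification is recorded for either group, so the groups are 2 sets of cows told apart by what happened later. In the table the subfertile cows carry the column prefix F and the fertile cows the prefix R. What these letters stand for is not stated. Columns were matched by number to the labelled cows, so every direction below rests on those labels and not on the letters.

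A promoter is the stretch around a transcription start where the machinery that copies a gene assembles. In mammals the core of many promoters is a CpG island with little methylation, while the flanks, often called island shores, carry intermediate and variable methylation that differs between cell types and between individuals. Downstream of the start, the outer window usually falls in the first exons or introns of the gene. Methylation was read after enzymatic conversion, which protects methylated and hydroxymethylated cytosines alike and turns the remaining cytosines into a base read as thymine. A value gives, for 1 cow and 1 cytosine, the methylated share of the calls in percent. No expression was measured.

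All 216990 sites had been chosen by the authors for a difference between these same cows, of more than 25 percentage points at a q-value below 0.01. A group difference at an outer promoter site is therefore a description of the selected sites, and a p-value below measures how the 12 cows scatter and adds no independent evidence of a difference. Whole blood mixes several cell types, and a different cell mix cannot be told apart from a different methylation level within 1 cell type. The read depth behind a value is unknown. All 12 cows had a value at 80.1% of the outer promoter sites, and no site had fewer than 5 cows in either group. The unweighted difference of the group means was under the authors' 25 points at 869 sites (10.3%), and its sign was opposite to theirs at 0 sites.

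The mean level over all outer promoter sites was close between the groups, at 55.6 ± 0.632% in subfertile cows and 55.6 ± 1.28% in fertile cows (SD, n = 6 each). Single cows ran from 54.8 to 56.3% in the subfertile group and from 53.9 to 57.8% in the fertile group, so the fertile range held the subfertile one. The same cows averaged 56.2 ± 1.11% (subfertile) and 55.9 ± 0.645% (fertile) at the promoter sites within 1 kb. Fertile cow 2 had the highest mean, the highest median (62.5%) and the largest share of values over 80% (41.1%), and subfertile cow 3 lacked a value at 4.99% of the sites, the most of any cow. These overall means average over sites of opposite direction. At sites higher in subfertile cows the means were 73.3 ± 1.45% (subfertile) and 39.4 ± 2.76% (fertile). At sites lower in subfertile cows they were 37.7 ± 2.49% (subfertile) and 72.0 ± 1.84% (fertile). These 4 means restate the authors' selection and are given only as levels.

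Outer promoter sites were divided almost evenly by direction. The subfertile mean was the higher one at 4242 sites and the lower one at 4180, so 50.4% were higher (95% exact binomial interval 49.3 to 51.4%, covering counting error only), against 52.1% of all deposited sites. The corresponding share was 50.7% at promoters within 1 kb and 53.3% at distal intergenic sites. Within the outer promoter it was 49.1% at 1 to 2 kb and 51.6% at 2 to 3 kb, and it was 49.2% upstream and 51.5% downstream of the start. Neighbouring sites share methylation, and with sites less than 1 kb apart counted once 51.2% of 4994 groups of sites were higher. The difference between the classes was not tested, because every site was selected on the outcome.

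The groups did not overlap, meaning that every subfertile cow was above or below every fertile cow, at 283 outer promoter sites (3.36%, interval 2.99 to 3.77%), against 3.1% of all deposited sites. Of these, 153 were higher in subfertile cows and 130 were lower, where the background over all deposited sites was 1.94% higher and 1.16% lower. Promoter sites within 1 kb had 128 of 3453 such sites (3.71%). A wide spread among cows was the more frequent picture: 5840 outer promoter sites (69.3%) had a cow under 10% together with a cow over 80%, against 69.9% of all deposited sites and 67.2% of the promoter sites within 1 kb. The genotypes of the cows were not analysed here. The plot of site shares by annotation class sets these numbers side by side.

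**Figure D1:**
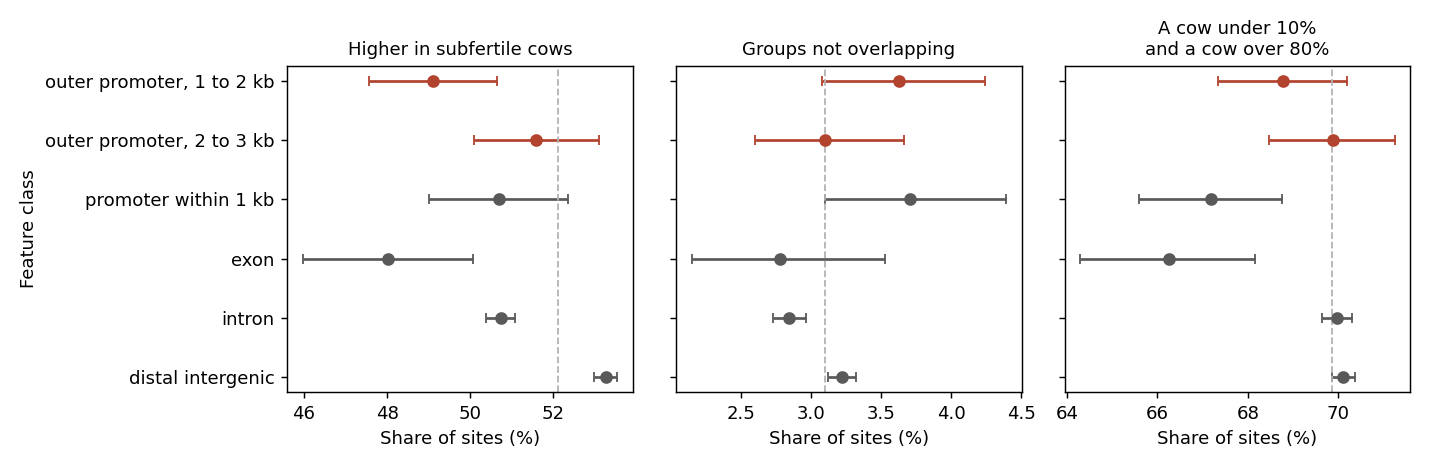
Share of sites (%, x axis) higher in subfertile cows, with groups that do not overlap, and with a cow under 10% and a cow over 80%, by annotation class (y axis). Points are shares, bars 95% exact binomial intervals that cover counting error only, red marks the outer promoter classes, and the dashed lines mark all deposited sites; the outer promoter shares lie at 49.1 and 51.6%, 3.63 and 3.1%, and 68.8 and 69.9%, and the axes do not start at 0.

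Distance from the start made little difference to the level. Over 16 bins of 250 bases the median of the site means lay between 54.0 and 60.8% in subfertile cows and between 54.8 and 61.5% in fertile cows. The share of sites without overlap ran from 2.01% at 2250 to 2500 bases upstream to 4.63% at 1000 to 1250 bases downstream. At the inner border, the 400 sites at 1000 to 1100 bases had median group means of 57.1% (subfertile) and 57.8% (fertile), and the 428 sites just outside it, at 900 to 1000 bases, had 54.1% and 59.98%. At the outer border, the 403 sites at 2900 to 3000 bases had 57.0% and 59.3%, and the 443 sites at 3000 to 3100 bases had 57.3% and 58.4%, in the same order of groups. The borders of the class were thus no visible step in level.

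**Figure D2:**
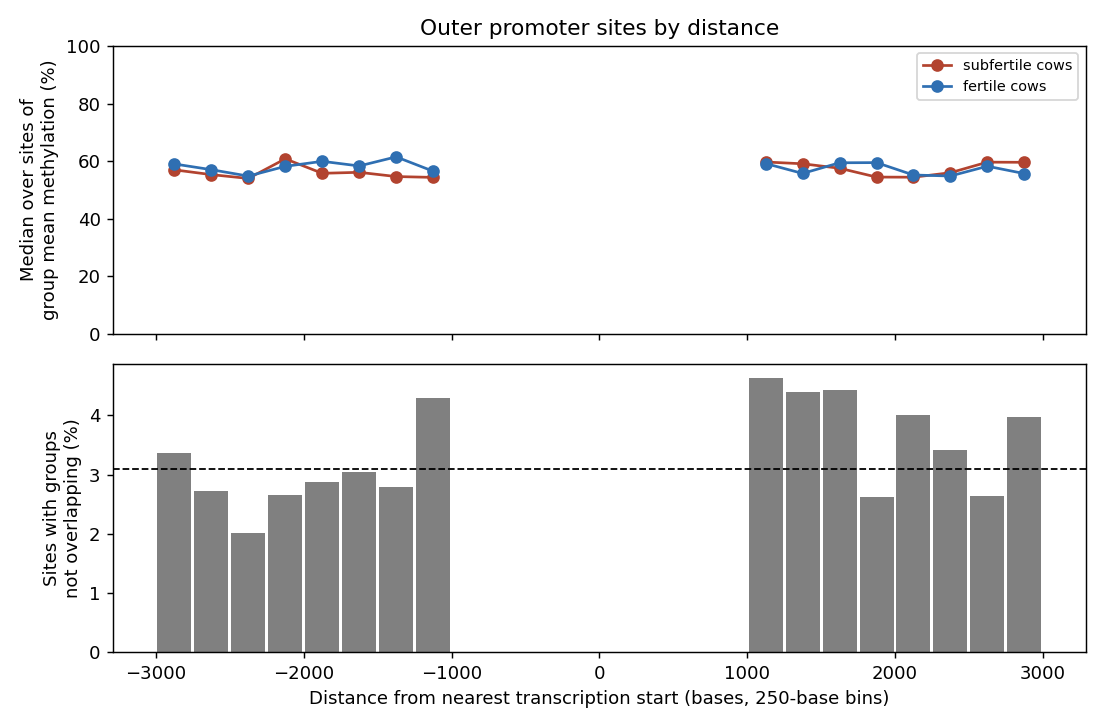
Upper panel: median over sites of the group mean methylation (%) in bins of 250 bases of distance from the nearest transcription start, negative upstream, for subfertile and fertile cows. Lower panel: share of sites (%) whose groups do not overlap in the same bins, with all deposited sites (3.1%) as the dashed line; the medians stay between 54.0 and 61.5% and the bars between 2.01 and 4.63%.

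Opposite strands of 1 CpG gave a measure of the error of a single value. Both cytosines of 1821 CpG sites were present, with 21209 readings in which both strands had a value in the same cow. The strands differed by a median of 5.56 points and by 23.3 points at the 90th percentile, 68.1% of the readings were within 10 points, and 0.514% were more than 50 points apart. All 1821 pairs had the same direction between the groups, where both strands had passed the authors' selection. The SD among cows of 1 group at an outer promoter site was 27.5 points at the median, and the median difference between the groups was 33.2 points. An SD among animals and a difference between strands are unlike measures and were not compared by a test.

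The sites were nearest to 4014 genes, 3195 of them with a symbol. Most genes had few sites: 2182 (54.4%) had 1 and 965 had 2, and the 867 genes with 3 or more held 4310 sites (51.2%). Of the genes with a symbol, 2809 (87.9%) were protein coding by RefSeq, and 119 were snRNA, 102 microRNA and 50 snoRNA genes. At promoters within 1 kb, 1201 of 1464 genes (82.0%) were protein coding. Chromosome 18 held the most outer promoter sites, 693, and chromosome 2 followed with 486. As a share of the deposited sites of a chromosome, chromosome 18 had 9.54% and chromosome 29 had 7.1%, against 3.88% over the whole table. Sites without overlap were 12 of 135 (8.89%) on chromosome 14, 8 of 130 (6.15%) on chromosome 17 and 28 of 472 (5.93%) on chromosome 29, against 3.36% of all outer promoter sites. Of the 12 on chromosome 14, 9 lie within 365 bases at LRATD2, which is described below.

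Single sites and gene means were tested with limma on log2 of (percent + 5)/(100 − percent + 5), fitted over the whole table. At single sites 0 of 8422 passed a Benjamini-Hochberg adjusted p of 0.05 in limma, as did 0% of all deposited sites, and 4406 (52.3%) had an unadjusted p under 0.05, against 52.7% of all. The smallest adjusted p was 0.0659. A mean over 3 or more sites of 1 gene, with a value in all 12 cows, could be formed for 864 genes, and 70 of them (8.1%) passed, against 5.16% of the 12191 gene means of all annotation classes. There were 36 genes with a higher mean in subfertile cows (4.17%, background 3.08%) and 34 with a lower one (3.94%, background 2.08%). The share was 10.1% of 297 gene means at promoters within 1 kb, 10.2% of 206 in exons, 4.55% of 4325 in introns and 4.75% of 6416 in distal intergenic regions. The groups did not overlap in 30 of the 864 genes (3.47%, background 3.6%), and 23 of these passed limma. An unadjusted p under 0.05 was the more common outcome, in 489 of the 864 genes (56.6%), against 44.2% of the gene means of all classes.

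The 70 genes differed by a median of 38.2 points, against 30.7 points for all 864, and the median of their within-group SDs was 13.5 points, against 19.8. In 69 of the 70 all outer promoter sites had the same direction, against 66.1% of the 864. Limma passes gene means with a large difference and a small spread, and sites of opposite direction shrink the difference of a mean. These contrasts therefore follow from how the 70 were chosen. The mean of a cow was between 35 and 65% in 35.2% of cases in the 70 genes and in 37.4% in all 864, and it was 90% or more in 22.7% and 19.2%. The number of genes that passed changed when 1 cow was left out. It ran from 8 without subfertile cow 6 to 59 without subfertile cow 4. It was 24 without subfertile cow 1 and also 24 without subfertile cow 3. The count at an unadjusted limma p under 0.05 moved less. It ran from 398 without fertile cow 6 to 442 without subfertile cow 4, and was 413 without subfertile cow 6, against 489 with all 12 cows. With 6 cows per group, 17 of the 70 genes passed in at least 10 of the 12 fits that leave out 1 cow. The 6 that passed in all 12 were IFNT3, LOC100299481, OLFM3, SLC7A1, TBX19 and ZNF503. Other genes described below held less firmly: LRATD2 passed in 9 of the 12 fits, MIR2401 in 8, MIR2285BL in 5 and INSIG1 in 4. LOC512119, IGHG1, EPS15L1, TNS3, SLC22A9, MIR2351 and MIR2406 passed in 2. The plot of calls with 1 cow left out shows these counts by direction, and the plot of gene means per cow shows how far the cows of each group lay apart in the genes described next.

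**Figure D3:**
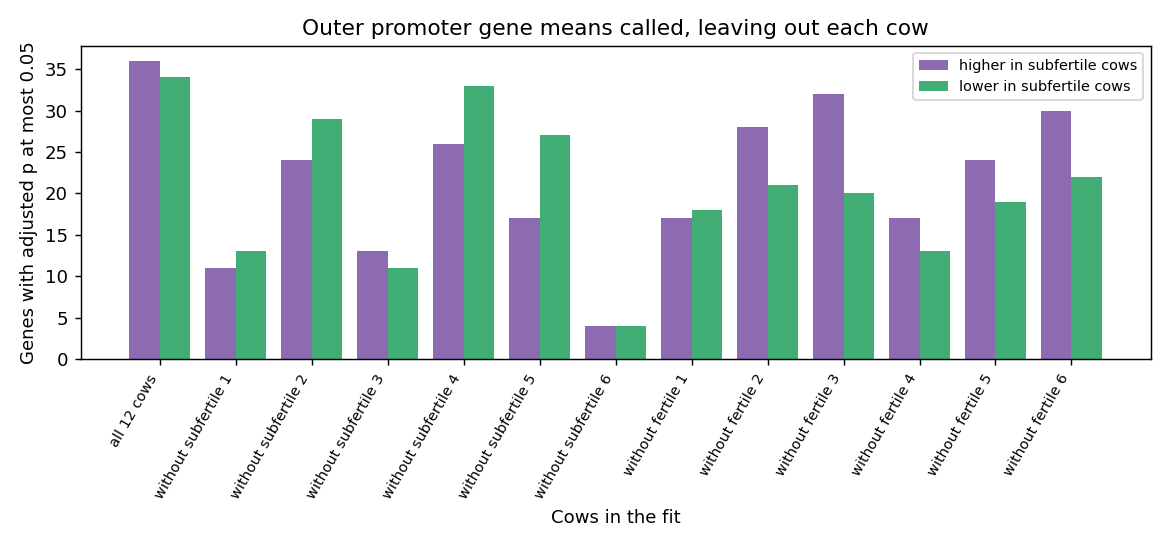
Number of genes whose outer promoter mean passed limma at an adjusted p of 0.05 (y axis), higher (purple) or lower (green) in subfertile cows, with all 12 cows and with each cow left out (x axis). With all cows the bars stand at 36 and 34, and without subfertile cow 6 at 4 and 4.

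**Figure D4:**
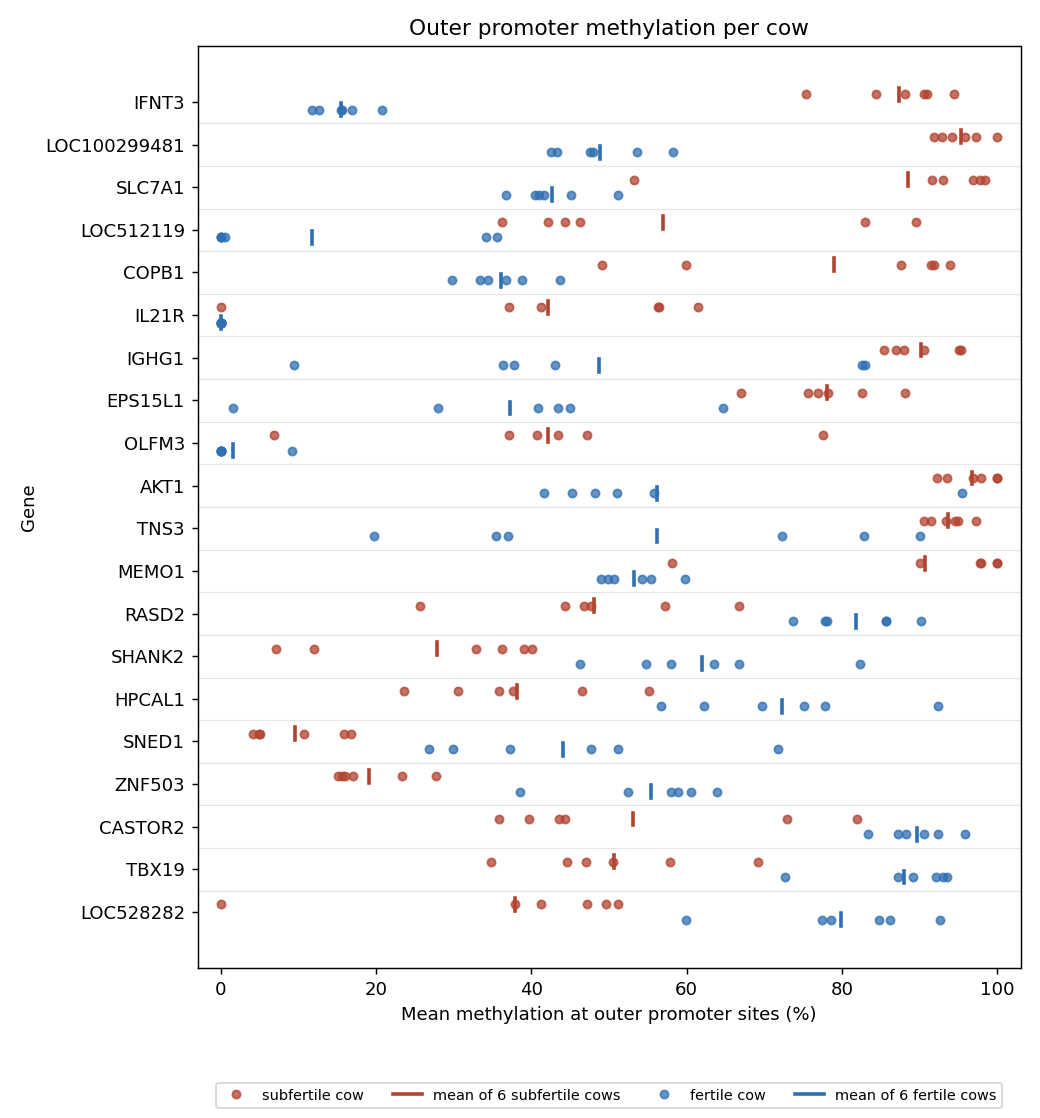
Mean methylation over the outer promoter sites (%, x axis) of each cow for 20 named genes (y axis). They had the largest differences among genes passing limma without overlap of cows, or passed in at least 10 fits with 1 cow left out. Points are cows, vertical bars the mean of 6 cows, and subfertile cows are drawn above fertile cows; IFNT3 at the top has subfertile cows from 75.4 to 94.5% and fertile cows from 11.8 to 20.7%.

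The strongest separation lay at the interferon tau gene IFNT3. Interferon tau is secreted by the trophoblast of the ruminant embryo and is the signal by which the mother recognises the pregnancy. Its 4 outer promoter sites are both strands of 2 CpG sites on chromosome 8 from 22580711 to 22580722 (build ARS-UCD1.2), 2823 to 2834 bases downstream of the annotated start. The subfertile cows had means from 75.4 to 94.5% with a median of 89.3%, and the fertile cows from 11.8 to 20.7% with a median of 15.6%. Every subfertile cow was far above every fertile cow. The group means were 87.3 ± 6.73% in subfertile cows and 15.5 ± 3.21% in fertile cows (SD, n = 6 each), a difference of 4.60 ± 0.33 (SE) on the log2 scale with a limma adjusted p of 3.49e-05. The neighbouring LOC100299481, a protein-coding gene by RefSeq whose sites start 91.7 kb further on, had 95.3 ± 3.0% in subfertile and 48.8 ± 6.07% in fertile cows over 4 sites (limma adjusted p = 0.000256). Its cows ran from 91.9 to 100% in the subfertile group and from 42.5 to 58.2% in the fertile group, so the fertile level was higher there than at IFNT3. The interferon tau genes are near-identical copies, and the placement of reads among them is uncertain. Without chromosome 8 altogether, 58 of 816 outer promoter genes passed.

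Among the genes with a symbol that passed limma without overlap of cows, SLC7A1 and CASTOR2 had some of the largest differences, in opposite directions. SLC7A1 is the main cellular importer of arginine and lysine. Its 4 sites, 1 CpG on each side of the start on chromosome 12 (30931447 to 30936886), ran from 53.3 to 98.4% with a median of 94.9% in subfertile cows and from 36.8 to 51.1% with a median of 41.3% in fertile cows. Subfertile cow 6, at 53.3%, lay just above the fertile range and the other subfertile cows were at 91.6% or more, with group means of 88.5 ± 17.5% and 42.7 ± 4.93%, subfertile first (limma adjusted p = 0.0278). CASTOR2, a paralogue of the cytosolic arginine sensor of the mTORC1 pathway, fell to 53.0 ± 19.3% in subfertile cows, against 89.6 ± 4.33% in fertile cows, over 3 sites upstream of its start on chromosome 25 (limma adjusted p = 0.0353). Its subfertile cows divided into 4 at 35.8 to 44.3% and 2 at 72.9 and 81.9%, while the fertile cows stayed between 83.4 and 95.8%.

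Among all 55 solute carrier genes with an outer promoter site, 34 had a higher and 21 a lower subfertile mean. Of these, 10 had enough sites to be tested and 2 passed, SLC7A1 and SLC22A9, where 59 of all 699 tested genes with a symbol (8.44%) did. With 1 cow left out, between 1 and 3 of the list passed. SLC22A9, an organic anion transporter gene, fell to 38.4 ± 25.8% in subfertile cows, against 87.0 ± 17.9% in fertile cows, over 4 sites on chromosome 29 (limma adjusted p = 0.0481). The subfertile cows were scattered from 0 to 80.6% and overlapped the fertile ones. The other 2 SLC22 genes named on that chromosome had the opposite order, with 58.0 ± 36.4% (subfertile) and 19.3 ± 21.7% (fertile) at 12 sites of SLC22A12, the urate transporter of the kidney, and 72.0 ± 17.5% and 15.4 ± 23.9% at the single site of SLC22A10. SLC22A12 did not pass (limma adjusted p = 0.107) and SLC22A10 was not tested.

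Of the insulin and growth hormone list 5 genes could be tested and 2 passed, AKT1 and INSIG1, against 8.44% of all tested genes with a symbol. With 1 cow left out, between 0 and 2 passed. AKT1 encodes a protein kinase downstream of the insulin and growth factor receptors. Over 4 sites on chromosome 21 (69244314 to 69245701) the subfertile cows ran from 92.3 to 100% with a median of 97.4%, and the fertile cows from 41.7 to 95.5% with a median of 49.6%. Fertile cow 4, at 95.5%, lay inside the subfertile range, and the other fertile cows were all below 60%. The group means were 96.8 ± 3.24% and 56.2 ± 19.8%, subfertile first, with a limma adjusted p of 0.0326. INSIG1, an endoplasmic reticulum protein that holds back cholesterol synthesis by retaining the SREBP factors, had 32 sites, more than any other gene, and rose to 72.1 ± 16.9% in subfertile cows, against 32.5 ± 15.2% in fertile cows (limma adjusted p = 0.046). All 32 sites were higher in subfertile cows, although the cows overlapped, from 47.1 to 90.9% in the subfertile group and from 12.9 to 53.5% in the fertile group. Of these sites, 26 lay within 313 bases between 1 and 1.5 kb upstream of the start, and 22 of the 26 were on the minus strand. Whether those cytosines belong to CpG sites could not be read without the genome sequence and was not tested. The same holds for ZNF503, SNED1 and LRATD2, described below, where all cytosines were on 1 strand. Of the 13 genes of this list with an outer promoter site, 7 had a higher and 6 a lower subfertile mean.

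COPB1, EPS15L1 and TNS3 had some of the largest positive differences among the genes with a symbol that passed limma without overlap of cows. COPB1 is a subunit of the coat that returns vesicles from the Golgi to the endoplasmic reticulum. It had 78.9 ± 19.4% in subfertile and 36.1 ± 4.79% in fertile cows over 4 sites on chromosome 15 (38231478 to 38235388; limma adjusted p = 0.0369). The lowest 2 subfertile cows, at 49.1 and 59.9%, were above the highest fertile cow at 43.6%. EPS15L1, an adaptor of clathrin-mediated endocytosis, rose to 78.1 ± 7.08% in subfertile cows, against 37.2 ± 21.1% in fertile cows, over 5 sites spread over several annotated starts on chromosome 7 (limma adjusted p = 0.0483). TNS3, a tensin that links integrins to the actin skeleton, had 93.7 ± 2.44% in subfertile cows and 56.2 ± 29.1% in fertile cows over 3 sites on chromosome 4 (limma adjusted p = 0.0481). Its fertile cows were scattered from 19.7 to 90% and its subfertile cows were tight, between 90.5 and 97.2%.

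MEMO1, a protein required for growth factor-driven cell migration, and OLFM3, a secreted olfactomedin, showed 2 different kinds of step. At MEMO1 on chromosome 11 (14636505 to 14640690, 4 sites) the fertile cows lay between 49.0 and 59.8% and the subfertile cows had a median of 97.8%. Subfertile cow 1, at 58.1%, lay within the fertile range, and the limma adjusted p was 0.0326. At OLFM3 on chromosome 3 (41433345 to 41451315, 4 sites) 5 fertile cows were at 0% and the other at 9.21%, while the subfertile cows ran from 6.82 to 77.6% with a median of 42.0% (limma adjusted p = 0.0303). The receptor of interleukin 21, IL21R, an immune cytokine receptor of lymphocytes, had a similar shape over 3 sites upstream of its start on chromosome 25. It was 0% in every fertile cow and in subfertile cow 5, and between 37.2 and 61.5% in the other subfertile cows (limma adjusted p = 0.0326). AKT1, MEMO1, OLFM3 and IL21R were named after their values were seen, because they passed in at least 10 fits with 1 cow left out. RefSeq lists LOC512119, which rose to 56.9 ± 23.1% in subfertile cows, against 11.7 ± 18.0% in fertile cows over 13 sites on chromosome 17, as a pseudogene (limma adjusted p = 0.046).

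The transcription factor genes TBX19 and ZNF503 fell in subfertile cows with all sites in the same direction. TBX19 is the T-box factor that specifies the corticotropin-producing cells of the pituitary. Its 12 sites, 6 CpG sites with both strands and all upstream of an annotated start, lay between 255036 and 263851 on chromosome 3. Subfertile cows had 34.9 to 69.2% with a median of 48.8%, and fertile cows 72.7 to 93.5% with a median of 90.7%, with no overlap (50.7 ± 11.8% against 88.0 ± 7.86%, limma adjusted p = 0.0205). At ZNF503, a zinc finger repressor of development, 5 minus-strand cytosines within 51 bases on chromosome 28 (31133621 to 31133671) averaged 19.1 ± 5.21% in subfertile cows and 55.4 ± 9.09% in fertile cows. Each of the 5 sites separated the groups without overlap. The difference was -2.14 ± 0.31 (SE) on the log2 scale with a limma adjusted p of 0.00865.

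Of 44 zinc finger genes with an outer promoter site, 18 had a higher and 26 a lower subfertile mean, and ZNF503 was the only one of 12 tested to pass, again against 8.44%. ZNF235 had the most sites, 13, with 88.4 ± 2.89% in subfertile and 52.9 ± 28.2% in fertile cows (limma adjusted p = 0.0618). The single fertile cow below 45% there was fertile cow 1 at 5.59%. ZNF576, 400 kb away on chromosome 18, had 11.4 ± 18.5% (subfertile) and 64.9 ± 36.8% (fertile) at 1 CpG. The 11 developmental transcription factor genes had 4 higher and 7 lower means, and TBX19 was the one that passed among 3 tested, against the same 8.44%. SIX4, a homeobox gene, had 65.7 ± 24.1% in subfertile and 26.8 ± 23.0% in fertile cows at 1 CpG and was not tested.

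Among the genes with a symbol that passed limma without overlap of cows, SNED1, RASD2, HPCAL1, SHANK2 and LOC528282 had some of the largest negative differences. SNED1, a matrix glycoprotein, had 7 minus-strand cytosines within 197 bases on chromosome 3 (120285391 to 120285587). Its subfertile cows were at 4.16 to 16.7%, and its fertile cows at 26.7 to 71.8% (9.56 ± 5.70% against 44.1 ± 16.6%, limma adjusted p = 0.0326). RASD2, a small GTPase of the striatum, fell to 48.1 ± 13.8% in subfertile cows, against 81.8 ± 6.27% in fertile cows over 4 sites (limma adjusted p = 0.0326). HPCAL1, a neuronal calcium sensor, averaged 38.2 ± 11.3% in subfertile and 72.3 ± 12.6% in fertile cows, and the scaffold gene of excitatory synapses SHANK2 averaged 27.9 ± 14.5% and 61.9 ± 12.3%, over 5 sites each. The limma adjusted p was 0.045 for HPCAL1 and 0.0481 for SHANK2. The sites of RASD2, HPCAL1 and SHANK2 spread over 8413, 63514 and 178046 bases, around more than 1 annotated start in each gene. SHANK2 passed in none of the 12 fits with 1 cow left out, HPCAL1 in 4, SNED1 and RASD2 in 11. LOC528282, a protein-coding gene by RefSeq on chromosome 19 with 11 sites, fell to 37.8 ± 19.2% in subfertile cows, against 79.9 ± 11.3% in fertile cows (limma adjusted p = 0.0488). Subfertile cow 3 was at 0% there, and the gene passed in 1 of the 12 fits.

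The genes with many sites differed in how evenly the cows of a group were arranged. LRATD2 had 16 plus-strand cytosines within 365 bases downstream of its start on chromosome 14 (13922054 to 13922418). All 6 fertile cows were between 86.8 and 92.5%, and the subfertile cows ran from 20.5 to 83.2% with a median of 58.8%. All 16 sites were lower in subfertile cows and 9 of them separated the groups (limma adjusted p = 0.0407).

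KLHL42, an adaptor of a ubiquitin ligase, had 20 sites with 40.9 ± 17.2% in subfertile and 71.0 ± 17.9% in fertile cows (limma adjusted p = 0.0626). SELP, the P-selectin of platelets and endothelium, had 16 sites with 72.1 ± 16.0% and 51.2 ± 24.6%, subfertile first (limma adjusted p = 0.157). In both genes 4 sites had the opposite direction to the others. The snRNA gene LOC112442462 had 17 sites at 65.3 ± 15.3% in subfertile and 37.8 ± 25.4% in fertile cows, where fertile cow 5 was at 85.3% (limma adjusted p = 0.103). At KLHL42, SELP and LOC112442462 every site had a cow under 10% and a cow over 80%, and at LRATD2 this held for 1 site of 16. The plot of site values against distance shows TBX19, LRATD2, INSIG1 and KLHL42.

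**Figure D5:**
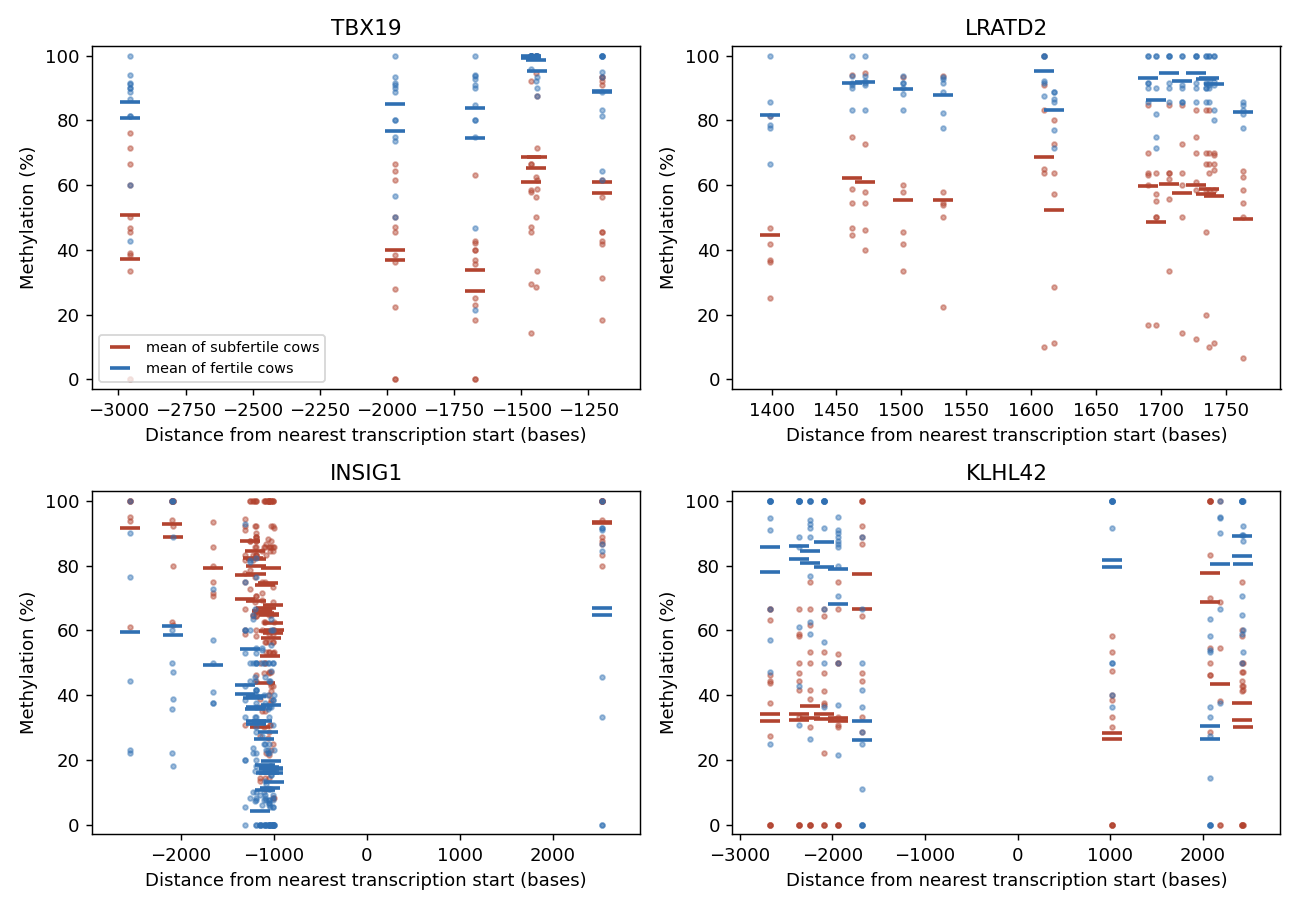
Methylation (%, y axis) at each outer promoter site of TBX19, LRATD2, INSIG1 and KLHL42 against the distance from the nearest transcription start (bases, x axis, negative upstream). Points are cows and bars the mean of the subfertile (red) or fertile (blue) cows; at LRATD2 the fertile means lie in a narrow band above all subfertile means, and at INSIG1 26 of 32 sites crowd between 1 and 1.5 kb upstream.

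Among single sites with no overlap between the groups, the largest positive differences were at IFNT3, an snRNA gene, ATG7 and PC, and the largest negative ones at F10, MAT1A, SLC22A9 and TXLNA. The site near the snRNA gene LOC112444666 (chromosome 27, 37398930) had 96.5 ± 5.92% in subfertile and 28.8 ± 30.1% in fertile cows. At ATG7, the activating enzyme of autophagy (chromosome 22, 55321157), the means were 96.0 ± 5.61% and 33.26 ± 27.9%, subfertile first. PC encodes pyruvate carboxylase, the first enzyme of gluconeogenesis from pyruvate. Its site on chromosome 29 (44962886) had 83.0 ± 23.8% in 5 subfertile cows and 21.2 ± 23.3% in 6 fertile cows. F10 encodes coagulation factor X. Its site (chromosome 12, 86500865) was at 0% in 4 of the 5 subfertile cows with a value and at 20% in the other, and between 54.5 and 100% in 5 fertile cows.

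The site near MAT1A, the liver enzyme that makes the methyl donor S-adenosylmethionine (chromosome 28, 35676429), averaged 15.4 ± 24.9% in 5 subfertile and 87.7 ± 7.44% in 5 fertile cows. The sites near SLC22A9 (chromosome 29, 41665759) and TXLNA, a syntaxin-binding protein (chromosome 1, 158226189), averaged 17.1 ± 13.9% and 13.2 ± 15.8% in subfertile cows, against 85.7 ± 17.3% and 77.8 ± 19.8% in fertile cows. None of these sites passed limma after adjustment (adjusted p from 0.0659 to 0.0661). The order among them was fixed by the choice of the largest differences.

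Of the genes listed as markers of blood cell types, 1 of 27 for T cells, 4 of 21 for B cells, 4 of 21 for natural killer cells, 4 of 31 for monocytes and neutrophils and 3 of 24 for red cells and platelets had outer promoter sites. The T cell gene was CD3E, a chain of the T cell receptor complex, with 97.5 ± 3.54% in subfertile and 71.2 ± 25.2% in fertile cows at 1 CpG. The 4 B cell genes had 1 site each, 2 higher and 2 lower. BLNK, an adaptor of the B cell receptor, had 68.8 ± 39.9% in subfertile and 36.9 ± 42.2% in fertile cows, and MS4A1, which encodes CD20, had 53.1 ± 29.8% and 88.7 ± 17.2%. Cows of both groups overlapped at all 3 genes, and none had enough sites to be tested.

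Of the 4 natural killer cell genes with a site, 2 were tested and 1 passed, GZMB, the granzyme B of cytotoxic granules, against 8.44% of all tested genes with a symbol. It fell to 52.2 ± 21.6% in subfertile cows, against 90.5 ± 5.00% in fertile cows, over 3 sites upstream of its start on chromosome 21 (limma adjusted p = 0.0467). Subfertile cow 2, at 93.9%, lay within the fertile range, and the gene passed in 1 of the 12 fits with 1 cow left out. Of 4 monocyte and neutrophil genes 3 were tested and 0 passed at an adjusted p of 0.05 in limma, and 2 had an unadjusted p under 0.05, as had 56.6% of all outer promoter gene means. MSR1, a macrophage scavenger receptor, had 95.4 ± 3.57% in subfertile and 64.3 ± 23.4% in fertile cows (limma adjusted p = 0.053), and LTF, the neutrophil granule protein lactoferrin, had 91.8 ± 4.80% and 52.2 ± 32.2% (limma adjusted p = 0.0614). In both, at least 1 fertile cow lay within the subfertile range. Of 3 erythroid and platelet genes, ITGA2B, the platelet integrin chain, had 17.0 ± 26.7% in subfertile and 47.8 ± 40.1% in fertile cows at 1 CpG. The subfertile mean was higher in 2 and lower in 2 of the natural killer cell genes. Of the monocyte and neutrophil genes 3 were higher and 1 was lower, and of the erythroid and platelet genes 2 and 1. The directions in the cell type lists were mixed, and their part in the other results was not tested.

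Of 21 cytokine and chemokine genes 12 had a higher and 9 a lower subfertile mean, and IL21R alone passed among 5 tested, against 8.44% of all tested genes with a symbol. With 1 cow left out, between 0 and 2 of the list passed. IL36G, an epithelial cytokine of the interleukin 1 family, had 13 sites, all lower, with 23.9 ± 16.4% in subfertile and 67.8 ± 34.6% in fertile cows. Fertile cow 6 was at 0% and the other fertile cows were between 62.7 and 87.7% (limma adjusted p = 0.0977). The same cow was at 0% at the single site of IL1A, the interleukin 1 alpha gene 177 kb away, where the other fertile cows were between 61.5 and 100%. There, 4 subfertile cows were at 0% and 2 at 50%.

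The 9 interferon response and innate sensing genes had 4 higher and 5 lower means. Of 3 tested, 0 passed limma at an adjusted p of 0.05, against 8.44% of all tested genes with a symbol. An unadjusted p under 0.05 was found in 1, against 56.6% of all outer promoter gene means. IRF5, a transcription factor of inflammatory cytokine genes, had 62.5 ± 26.4% in subfertile and 24.7 ± 28.1% in fertile cows over 6 sites (limma adjusted p = 0.0723). Of the fertile cows 3 were at 0%, and every subfertile cow was at 43.6% or more. The groups overlapped, as fertile cows 1 and 5, at 49.8 and 61.4%, lay within the subfertile range. BOLA-DRA, the alpha chain of the MHC class II molecule DR, had 81.1 ± 13.9% in subfertile and 42.7 ± 33.2% in fertile cows over 3 sites (limma adjusted p = 0.0717). It was the 1 antigen presentation gene tested of 6 with outer promoter sites, of which 3 had a higher and 3 a lower mean. IGHG1, the constant region of the IgG1 heavy chain, which the deposited annotation places on chromosome 20, rose to 90.2 ± 4.21% in subfertile cows, against 48.7 ± 28.9% in fertile cows, over 8 sites (limma adjusted p = 0.0481). Its fertile cows divided into 4 at 9.38 to 43.1% and 2 at 82.6 and 83.0%. Constant region genes of the immunoglobulins resemble each other, so the placement of reads is uncertain there too.

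Of 44 listed reproductive hormone genes 7 had outer promoter sites, 9 in all, 3 with a higher and 4 with a lower mean, and none could be tested. CYP11A1, the enzyme of the first step of steroid hormone synthesis, had 71.1 ± 19.6% in subfertile and 38.3 ± 21.6% in fertile cows at 2 sites. Its fertile cows were at 64.6 and 66.7% in 2 cases and between 16.7 and 27.8% in the other 4. LHCGR, the receptor of luteinising hormone, had 30.8 to 92.9% in subfertile cows and 0 to 47.4% in fertile cows at 1 site 1032 bases downstream of its start. Of 5 imprinted genes, which are expressed from 1 parental copy, 1 was tested. GRB10, an imprinted adaptor that damps insulin receptor signalling, had 59.9 ± 10.7% in subfertile and 81.1 ± 14.2% in fertile cows over 4 sites (limma adjusted p = 0.0782), and the single site of the growth factor gene IGF2 had 21.0 ± 25.6% and 63.9 ± 37.1%. In all 4 genes the cows of the groups overlapped. The 4 GRB10 sites spread over 85613 bases, around more than 1 annotated start.

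Enzymes and readers of DNA methylation and histone marks had 24 sites in 9 genes, of which 19 sites and 6 genes were lower in subfertile cows. PRMT2, a protein arginine methyltransferase, held 11 of them, with 22.7 ± 24.96% in subfertile and 70.5 ± 27.0% in fertile cows (limma adjusted p = 0.0546). The cows of PRMT2 fell at 3 levels: 3 subfertile cows were at 0 to 0.478%, the others of that group between 40.9 and 52.1%, and the fertile cows either at 45.2 to 47.1% or at 93.8 to 97.6%. None of the 3 genes tested passed limma, where 8.44% of all tested genes with a symbol did. All 3 had an unadjusted p under 0.05, as had 56.6% of all outer promoter gene means.

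Of 17 ion channel genes 9 had a higher and 8 a lower mean. Of 4 tested, 0 passed limma at an adjusted p of 0.05, against 8.44% of all tested genes with a symbol. An unadjusted p under 0.05 was found in 2, against 56.6% of all outer promoter gene means. CACNA1C, the pore of the L-type calcium channel, had 19.6 ± 23.7% in subfertile and 50.02 ± 27.1% in fertile cows over 8 sites (limma adjusted p = 0.0921), and the potassium channel gene KCNF1 had 39.8 ± 27.2% in 5 subfertile cows and 83.0 ± 24.2% in 6 fertile cows at 1 site. The 8 CACNA1C sites spread over 125543 bases, around more than 1 annotated start. Of 20 phosphatase genes 13 had a higher mean. PTPRJ, a receptor-type tyrosine phosphatase, had 94.7 ± 3.85% in subfertile and 64.7 ± 30.7% in fertile cows, with no overlap (limma adjusted p = 0.0614). Its fertile cows were widely scattered, from 7.74 to 87.6%. DUSP8, a dual-specificity phosphatase, had 96.8 ± 4.5% in 5 subfertile and 39.3 ± 38.5% in 6 fertile cows at 1 site. Of 15 matrix and protease genes 7 had a higher and 8 a lower mean. MMP3, the stromelysin that degrades matrix, had 54.0 ± 32.2% in subfertile and 88.8 ± 4.65% in fertile cows over 4 sites (limma adjusted p = 0.0653), and COL6A2, a collagen VI chain, had 76.8 ± 29.0% and 28.8 ± 36.2% at 1 CpG.

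MicroRNA genes were the largest non-coding list, with 207 sites at 102 genes, 52 of them with a higher and 50 with a lower mean. Of 21 tested, 4 passed, against 59 of all 699 tested genes with a symbol, and between 0 and 3 passed with 1 cow left out. MIR2285BL rose to 91.4 ± 5.61% in subfertile cows, against 60.4 ± 20.3% in fertile cows, with no overlap (limma adjusted p = 0.045). MIR2406 had 65.7 ± 23.8% in subfertile and 16.0 ± 25.2% in fertile cows, of which 4 were at 0% (limma adjusted p = 0.0483). MIR2401 averaged 55.6 ± 16.4% in subfertile and 85.8 ± 5.16% in fertile cows without overlap (limma adjusted p = 0.0425), and MIR2351 averaged 57.9 ± 19.4% and 92.5 ± 11.1% (limma adjusted p = 0.0484). MIR2467, with the most sites, 12 on chromosome 8, had 49.8 ± 19.3% in subfertile and 82.4 ± 17.6% in fertile cows. It did not pass (limma adjusted p = 0.0608): subfertile cow 1 stood at 88.6%, and fertile cow 3 at 46.7%. A microRNA inside a host gene shares the sites of that gene's body, and their assignment follows the nearest start in the deposited annotation.

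Some of the named genes also had deposited sites within 1 kb of the start, read in the same cows and selected by the same rule. IFNT3 had 92.9 ± 4.45% in subfertile and 31.2 ± 5.09% in fertile cows at 3 such sites, and LOC100299481 had 88.7 ± 4.17% and 38.0 ± 10.3% at 4. ZNF235 had 92.1 ± 5.49% and 38.9 ± 37.5% at 1 site, and SNED1 had 20.7 ± 10.8% and 51.1 ± 12.5% at 2, subfertile first in each. These genes kept the order of the groups that their outer sites had. HPCAL1 had the opposite order near the start, with 70.2 ± 2.89% in subfertile and 47.1 ± 15.8% in fertile cows at 5 sites. TNS3 likewise had 33.4 ± 20.1% (subfertile) and 68.1 ± 10.9% (fertile) at 2 sites, SELP had 31.8 ± 16.2% and 59.7 ± 28.6% at 8, and DUSP8 had 56.2 ± 38.1% and 83.3 ± 9.24% at 1. The fifth gene with the opposite order was CACNA1C, with 48.5 ± 25.2% and 44.7 ± 25.3% at 5 sites. In all, 27 of the named genes had sites within 1 kb, and 22 of them had the order of their outer sites, in the same cows and under the same selection. Genes with several annotated starts, HPCAL1, TNS3 and CACNA1C among them, mix sites around different starts in each of these means.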

How the data were processed

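Percent methylated per cytosine and cow, with a p-value, a q-value and a signed difference score (in points) between the groups, was taken as deposited by the authors, per the file headers, together with a distance score from the nearest start. Per the submitters' processing notes, the tools included ChIPseeker 1.32.1, fastp 0.23.1, DRAGEN and Bismark, with ARS-UCD1.2 as the build. Which program made the p-values, and from how many reads, is not stated in the sources used here. Columns were matched to cows by number, and replicate numbers only name cows.

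From these values, means per gene and annotation class (at least 3 sites, all 12 cows) and single sites were compared, subfertile minus fertile, with limma 3.58.1 in R 4.3.3 on log2((percent + 5)/(100 − percent + 5)), adjusted over the whole table. The precision of single values is unknown, since depth is. Members, lists and tests were chosen with earlier results of these data known. Named genes were the 8 largest differences each way among genes that passed without overlap of cows, the 6 genes with the most sites, the 4 largest single sites each way without overlap (1 per gene), and from each of 19 lists the member with the most sites and the one that differed most; SLC22A9, MIR2285BL, MIR2401 and MIR2351 are named as passing list members and, with AKT1, MEMO1, OLFM3 and IL21R, were picked with their values in view. The report leaves out 1 gene that this rule takes. Biotypes came from RefSeq (ARS-UCD2.0) by Entrez gene identifier, with 15 of 3195 genes with a symbol unmatched. No coordinates of that assembly were used. Sequences are not printed, as no genome of the files' build was used. Alternatives changed the added points, scale, site filters, site number, strands, distance classes and cows.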

Additional observations from a re-analysis of the deposited data

Results flagged for a closer look

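Among 139 groups examined, 19 had a cow whose gap to its nearest neighbour was large against the range of its group. The nominal rate is about 1 in 20 groups. It does not allow for percent values that are bounded or tied, as in the fertile cows at 0% in OLFM3, or for genes chosen by their values. No excess over chance is read from the 19. In genes that passed limma, the lone low cows were subfertile cow 6 at 53.3% in SLC7A1, subfertile cow 3 at 0% in LOC528282, subfertile cow 1 at 58.1% in MEMO1 and fertile cow 2 at 72.7% in TBX19. The lone high cows in such genes were subfertile cow 2 at 93.9% in GZMB, fertile cow 4 at 95.5% in AKT1 and fertile cow 1 at 9.21% in OLFM3.

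In genes that did not pass or were not tested, lone low cows were subfertile cow 5 at 41.1% in SELP and at 53.5% in BOLA-DRA, subfertile cow 3 at 90.9% in CD3E, fertile cow 2 at 54.5% in MS4A1, fertile cow 6 at 0% in IL36G and fertile cow 3 at 46.7% in MIR2467. Lone high cows were subfertile cow 3 at 64.6% in CACNA1C, subfertile cow 1 at 88.6% in MIR2467 and, at the single F10 site, subfertile cow 2 at 20%. Over all outer promoter sites, fertile cow 2 stood apart in its median (62.5%) and in its share of values over 80% (41.1%), and subfertile cow 3 in its share of sites without a value (4.99%).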

How the results depend on the processing

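The share of sites higher in subfertile cows was 49.1% at 1 to 2 kb, 51.6% at 2 to 3 kb and 48.1% above an authors' difference of 40 points, against 50.4% in all, so it moved to either side of even. Above 40 points 6.38% of sites had no overlap of groups and 90.5% had a cow under 10% and a cow over 80%. Sites of the second kind were 71.6% below an authors' q of 0.001 and 62.4% with sites within 1 kb counted once. Without such sites, the mean levels were 62.1% (subfertile) and 61.5% (fertile). The 0 sites called by limma became 35 on plain percent values (19 higher, 16 lower) and 1890 of 2582 without sites that had a cow under 10% and a cow over 80% (967 higher, 923 lower), a filter that by its construction removes sites with a wide spread among cows. The 70 called of 864 gene means (36 higher, 34 lower) became 28 with 1 point added (15 and 13) and 121 on plain percent values (58 and 63). With that filter, 132 of 189 passed (66 and 66). With at least 5 sites, 42 of 346 passed (18 higher), and with both strands averaged 33 of 576 did (15 and 18). Fewer genes could be tested in these settings. Among the genes that passed with all 12 cows, IFNT3, LOC100299481, SLC7A1, AKT1, MEMO1, IL21R, CASTOR2, TNS3, GZMB and MIR2406 had 2 CpG positions each. These genes had no test with strands averaged. With 1 to 2 kb and 2 to 3 kb as 2 classes, 50 of 740 gene means passed (28 higher and 22 lower). Leaving out each cow gave 8 to 59 in all, 4 to 32 higher and 4 to 33 lower. Cows whose removal lowered the total by over 1.5 times were subfertile 1 (24), 3 (24), 5 (44) and 6 (8) and fertile 1 (35), 4 (30) and 5 (43). Over the named genes and single sites with a test, calls were lost in 126 combinations with an alternative and gained in 18, with no reversal. The outcome stayed the same in 681. Those include genes and single sites that did not pass with all 12 cows and so had no call to lose. The 681 are therefore no measure of how firm the calls were: of the 70 called genes, 17 passed in at least 10 of the 12 fits with 1 cow left out. No paired analysis was possible because replicate numbers only name cows and the labels give none. Depth is unknown, so no read minimum could be varied.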
